A study of Mus musculus with 2 samples.

Results

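Spliced transcript forms that use at least 1 splice site absent from the annotation were examined in the adrenal gland of young mice. A form is an intron chain, the ordered set of introns of a read. Members were forms of an annotated gene with 2 or more exons that the deposited tables class as new not in catalog, meaning that a donor or acceptor is unannotated, and that had at least 5 reads in a library. The rule found 759 forms in 616 genes, among 126114 spliced chains of all classes. Of these, 526 met the rule in replicate 1 and 474 in replicate 2, and 241 met it in both. Members were thus selected on their class and read counts, so their numbers and levels are descriptions without a test.

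The data are long-read RNA sequencing of adrenal gland from male B6CASTF1/J mice aged 14 days, the F1 hybrids of a C57BL/6J and a CAST/EiJ parent, as 2 libraries of 1 group with no second condition. The labels write 3x Males for both libraries without saying how many animals went into each. Both libraries name the same donor identifier and their biosample labels are numbered 3 and 4, so separate animals cannot be read from the labels, and the spread between animals is in no p-value or interval given here, only counting error. Replicate 1 held 964815 reads and replicate 2 held 985101 reads after removal of ERCC spike-ins, which took 1.72% and 1.79% of all reads. With 3 reads as the upper limit for a count of 0, a form without reads was below 3.11 CPM (reads per 1000000 reads without spike-ins) in replicate 1 and below 3.05 CPM in replicate 2. All 6 adrenal cortex markers and all 5 chromaffin cell markers had reads in both libraries. All 8 hepatocyte markers did as well, with a summed level of 754 CPM in replicate 1 and 15655 CPM in replicate 2, and 4 of 5 kidney markers were at 0 in both. All 4 adipocyte markers had reads in both, which summed to 9675 CPM in replicate 1 and to 9636 CPM in replicate 2. All 3 erythroid markers did so too, at sums of 11870 CPM (replicate 1) and 11663 CPM (replicate 2).

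Introns are removed by the spliceosome, which recognises a donor at the start of the intron, nearly always GT and less often GC, and an acceptor at its end, nearly always AG. Neighbouring sites can compete for the same splice: tandem acceptors of the form NAGNAG differ by a codon's length, and tandem donors a few bases apart shift the reading frame. The adrenal cortex makes corticosteroids from cholesterol through a chain of cytochrome P450 enzymes, and the chromaffin cells of the medulla store catecholamines and enkephalins in granules.

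The windows below show unannotated ends that carry the results. Each is read from GENCODE M21 transcript sequences (mm10, GRCm38) on the strand of the gene, with 15 exon and 15 intron bases, and capitals mark the 2 intron bases at the end. The bases are those of the reference genome, and alleles of the CAST parent were not read. Donor windows run from exon to intron and acceptor windows from intron to exon. The first 3 are donors that lengthen or shorten an annotated exon by 8 bases or fewer.

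Mrpl33 form 1, donor, chr5:31614016-31614045, plus strand: gtctcttgtaagtcgGTctgaggcggcggc
Lmf1 form 1, donor, chr17:25585842-25585871, plus strand: gggcagatctggtaaGTagagcctctcccc
Fabp4 form 1, donor, chr3:10205229-10205258, minus strand: ggtgacaagctggtgGTggtgagttacgct

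The next 5 are acceptors. Cdkn1c, Mettl9 and Dus1l each lie 3 bases inside the annotated exon, and Penk and Rwdd4a are ends whose bases, or whose annotated neighbour's bases, differ from AG.

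Cdkn1c form 1, acceptor, chr7:143460661-143460690, minus strand: gtacctccgcagcAGaacagcgatggaacg
Mettl9 form 1, acceptor, chr7:121076118-121076147, plus strand: tatttgttctagtAGgtggcaagtgggaga
Dus1l form 1, acceptor, chr11:120791926-120791955, minus strand: gggcttttacaggAGgacatgtctaggcag
Penk form 1, acceptor, chr4:4138132-4138161, minus strand: tcttctctcctacAGcccatggcgcggttc
Rwdd4a form 1, acceptor, chr8:47550677-47550706, plus strand: tttttttttttttATcagttaagcaaaact

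The next 2 are donors that begin with GC, and the last 2 pairs are both ends of introns cut out of an annotated exon.

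Uchl1 form 1, donor, chr5:66676317-66676346, plus strand: cccgaggtaagcataGCtgctgggtcgctt
Rpl7l1 form 1, donor, chr17:46778032-46778061, minus strand: gcaggagcaggtgagGCgagtgtgtgctgc
Srd5a2 form 1, donor, chr17:74017195-74017224, minus strand: ttttttcatatgcagGTtctagattttaat
Srd5a2 form 1, acceptor, chr17:74017136-74017165, minus strand: tatgtgtatgttgAGggtcatatagttcat
Rfng form 1, donor, chr11:120781327-120781356, minus strand: ccagcccagccacagGTccttccctggaca
Rfng form 1, acceptor, chr11:120781194-120781223, minus strand: ccagcccagccacAGgtccttccctggata

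Members took 8877 reads in replicate 1 and 8301 reads in replicate 2. That was 1.09% (Wilson 95% interval 1.06 to 1.11) of the spliced reads of annotated genes in replicate 1 and 1.04% (1.02 to 1.06) in replicate 2. Most members were rare: the median was 11 reads over both libraries, 57 had 50 or more and 25 had 100 or more. The most abundant was Mrpl33 form 1, with 301 reads in replicate 1 and 403 in replicate 2. A further 27838 of the 34092 chains of this class in annotated genes, 81.7%, had a single read in all. Just inside the threshold, 212 chains peaked at 5 reads and 84.9% of them were in both libraries. Just outside it, 366 chains peaked at 4 reads and 77.0% were in both.

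Most members were seen in both libraries. Reads were found in both for 703 of 759 members (92.6%), beside 94.2% of 1538 new in catalog chains and 97.5% of 10993 known chains chosen with the same minimum. Of the 422 members with 5 or more reads in only 1 library, 366 (86.7%) had at least 1 read in the other, which the rule did not require. The same share was 89.1% for new in catalog chains and 88.4% for known chains. With 5 to 9 reads in total, 82.3% of members, 85.5% of new in catalog chains and 84.0% of known chains were in both libraries. The 56 members seen in 1 library comprised 25 in replicate 1, with at most 8 reads, and 31 in replicate 2, with up to 27 reads.

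**Figure D1:**
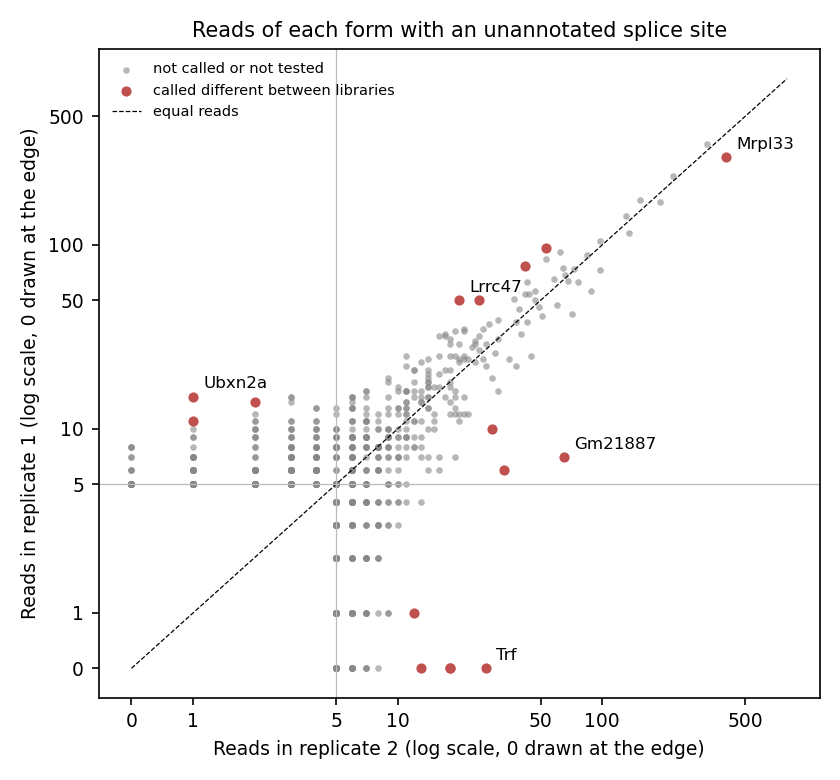
Reads of each of the 759 forms in replicate 1 (vertical axis) and replicate 2 (horizontal axis), both on log scales with 0 drawn at the edge; grey lines mark 5 reads, the dashed line equal reads, and red points the 16 forms called different between the libraries. Most points lie along the dashed line, with Mrpl33 at the far right and Trf at 0 reads in replicate 1 and 27 in replicate 2.

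The class of a chain was not always the same in both tables. Both libraries gave new not in catalog for 528 members, while 143 members were classed new in catalog in the other library and 29 were classed truncated there. The chain of Smdt1 form 1, for example, was new not in catalog in replicate 1 with 116 reads and new in catalog in replicate 2 with 135 reads.

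The 759 forms held 885 distinct unannotated ends, 471 donors and 414 acceptors, in 790 distinct introns. A total of 624 forms differed from the annotation by 1 end, 123 by 2 ends and 12 by 3 or more. Most changes lay inside a known exon or extended one. All unannotated ends lay inside an annotated exon in 383 forms (50.5%) and beyond an annotated exon that the form extends in 174 forms (22.9%). A new first exon was the only change in 69 forms (9.09%), a new intron inside an exon in 48 (6.32%), a new internal exon in 24 (3.16%) and a new last exon in 12 (1.58%). The other 49 forms combined kinds. Donors lay in the first intron in 47.1% of cases and acceptors in 31.9%.

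The shifted ends clustered at short distances, and both kinds of end more often lay downstream of the annotated one along the transcript, which shortens an exon at its acceptor and lengthens it at its donor. The 624 ends that lay inside an annotated exon, or beyond one that the form extends, were counted as shifted. Of these, 301 (48.2%) lay within 10 bases of the nearest annotated end of the gene and 143 (22.9%) within 3 bases. Distance had no upper limit and reached 96930 bases for an acceptor, so not every such end moved the edge of a known exon. Acceptors had a median distance of 6 bases and lay on the side of a longer exon in 30.4% of 313 cases. Donors had a median distance of 18 bases and lay on that side in 62.1% of 311 cases. The most frequent acceptor was 3 bases inside the exon, with 74 sites or 23.6% of acceptors, followed by 24 sites 4 bases inside and 20 sites 3 bases outside. The most frequent donor was 4 bases into the intron, with 51 sites or 16.4% of donors, and the next had 12 sites, 3 bases inside the exon. Alignments of individual reads were not examined, so whether short distances reflect read placement was not tested.

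**Figure D2:**
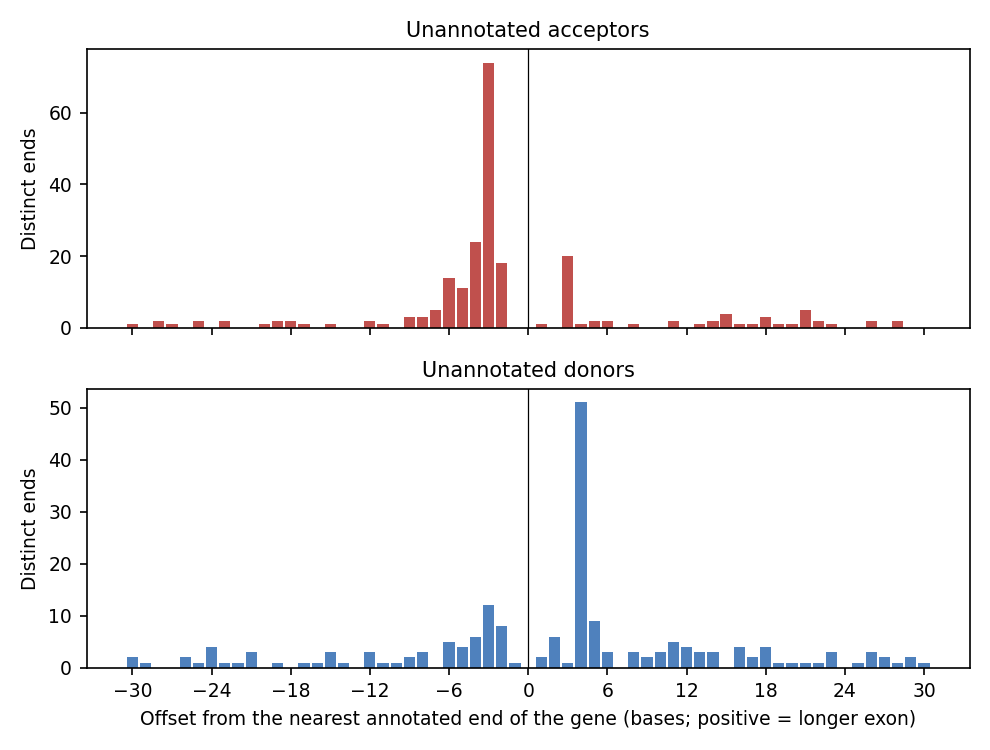
Number of distinct unannotated acceptors (top) and donors (bottom) at each offset, in bases, from the nearest annotated end of the same gene; positive offsets make the exon longer and offsets beyond 30 bases are not drawn. Acceptors peak at 3 bases inside the exon with 74 sites and donors at 4 bases into the intron with 51 sites.

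The acceptors 3 bases inside an exon form tandem pairs with the annotated site. All 74 could be read and ended in AG, and in all 15 where the annotated end could be read as well, both were AG. Cdkn1c, an imprinted inhibitor of cyclin-dependent kinases, had the most reads: 152 of 624 reads that left the annotated donor of intron 1 used the inner acceptor in replicate 1, a usage of 24.4%, and 195 of 804 did so in replicate 2, 24.3%. The window above reads cagcAG at this point, and the annotated intron stops after the first cag. In Dus1l, a tRNA dihydrouridine synthase, the inner acceptor took 96.7% of 122 reads in replicate 1 and 100% of 113 reads in replicate 2. In Mettl9, a histidine methyltransferase, usage was 25 of 111 reads in replicate 1 and 22 of 116 reads in replicate 2. Over the 57 such acceptors with at least 20 reads at the partner donor in each library, the median usage was 6.56% in replicate 1 and 7.27% in replicate 2, and 21 exceeded 10% in both.

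The donors 4 bases into the intron also sat beside an intact annotated donor where the bases could be read: 9 of 10 readable sites were GT with GT at the annotated end 4 bases before, as in the GTaaGT of Lmf1, and the remaining site was GC. Idh3g, the gamma subunit of the mitochondrial NAD-dependent isocitrate dehydrogenase, spliced at the new donor of intron 2 in 385 of 422 reads of replicate 1 (91.2%) and 344 of 398 reads of replicate 2 (86.4%). Pitpna, a phosphatidylinositol transfer protein, did so at intron 4 in 99.4% of 180 reads in replicate 1 and 99.4% of 162 reads in replicate 2. Col6a1, a chain of collagen VI, did so at intron 26 in all 146 reads of replicate 1 and 144 of 145 reads of replicate 2. Those genes were exceptions. The median usage over 34 such donors was 0.666% in replicate 1 and 1.08% in replicate 2, and 4 exceeded 50% in both. In Cyp11a1, the enzyme that cleaves the cholesterol side chain, the donor 4 bases into intron 6 took 18 of 6486 reads in replicate 1 (0.278%) and 23 of 6307 reads in replicate 2 (0.365%).

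Acceptor shifts were more often a multiple of 3, which keeps the reading frame, than donor shifts. Where the annotated exon edge was coding and the shift was 100 bases or less, 129 of 218 acceptor shifts (59.2%, Wilson interval 52.5 to 65.5) but 48 of 166 donor shifts (28.9%, 22.6 to 36.2) were a multiple of 3. These intervals do not overlap. Between 11 and 100 bases the shares were 45.6% (34.3 to 57.3) for 68 acceptors and 39.4% (28.9 to 51.1) for 71 donors, whose intervals overlap. At edges outside coding sequence, 45.3% of 53 acceptor shifts and 23.9% of 67 donor shifts were a multiple of 3. The neighbouring exons of a gene share reads and annotation, so sites are not independent replicates.

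The bases at the ends could be read for 526 of 885 sites (59.4%), those that lie in an annotated exon of some transcript. GT at donors or AG at acceptors was present at 489 of them (93.0%, Wilson interval 90.5 to 94.9). Annotated ends of known forms, read in the same way, had GT or AG at 29008 of 29251 sites (99.2%, 99.1 to 99.3). The gap lay mainly at donors. GC began 29 of 222 unannotated introns (13.1%, 9.25 to 18.1) against 173 of 15304 annotated ones (1.13%, 0.975 to 1.31), and AG ended 297 of 304 unannotated introns (97.7%) against 13911 of 13947 annotated ones (99.7%). Sites inside annotated exons make up most of the readable ones, and the rest were not read here.

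GC donors were found at low and at high usage. Uchl1, a ubiquitin hydrolase of neurons and neuroendocrine cells, spliced at a GC donor 9 bases beyond the annotated end of exon 1 in 48 of 51 reads of replicate 1 (94.1%) and all 39 reads of replicate 2. Rpl7l1, related to a ribosomal protein, used a GC donor 5 bases downstream of an annotated donor in 40 of 129 reads of replicate 1 (31.01%) and 38 of 119 reads of replicate 2 (31.93%). In Usmg5, a subunit of the mitochondrial ATP synthase, the GC donor took 14 of 695 reads in replicate 1 and 16 of 844 in replicate 2. The median usage of 15 GC donors with enough reads was 8.24% in replicate 1 and 3.68% in replicate 2, beside 5.51% in replicate 1 and 4.55% in replicate 2 for 122 readable GT donors.

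A few ends departed from GT, GC and AG. There were 6 acceptors with AT. A new intron inside an exon of Lpl form 2, of lipoprotein lipase, began with CT and ended with GC, and had 9 reads in replicate 1 and 3 in replicate 2. Identical bases at both ends numbered 6 for this intron, and 22 and 7 for introns of Gm15446 and Smim14 with AT acceptors. Such introns could be placed elsewhere with the same spliced sequence, so their end bases are uncertain. Rwdd4a form 1 had the most used AT acceptor, 3 bases before an annotated AG and at the end of a run of T. It took 37 of 38 reads in replicate 1 (97.4%) and 26 of 28 reads in replicate 2 (92.9%). Without the alignments of individual reads, the placement of this end was not tested. The opposite case was Penk, the precursor of the enkephalins. Its unannotated acceptor in intron 1 ended in AG and was used by all 23 reads of replicate 1 and all 20 reads of replicate 2, whereas the annotated end 1 base downstream reads GC. Among 152 shifted ends where both sites could be read, 133 had GT or AG at both, 16 had it only at the annotated end, and 3 only at the unannotated end: Penk, Ankrd9 and Ehbp1l1.

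Usage varied widely between ends. Usage here is the share of reads with the unannotated intron among all reads that splice at its annotated partner end. Of 567 ends with at least 20 partner reads in each library, the median usage was 4.62% in replicate 1 and 4.27% in replicate 2. The Wilson intervals of the libraries overlapped for 560 of the 567. Intervals from few reads are wide, so their overlap does not show that usage was equal. The median absolute difference between the libraries was 1.47 percentage points, beside a median of 4.39% for the mean usage of the libraries. Usage exceeded 10% in both libraries at 147 ends, 50% at 38 and 90% at 25. Ends beyond an annotated exon made up 20 of the 38 and ends inside one made up 16, with the other 2 in new first exons.

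**Figure D3:**
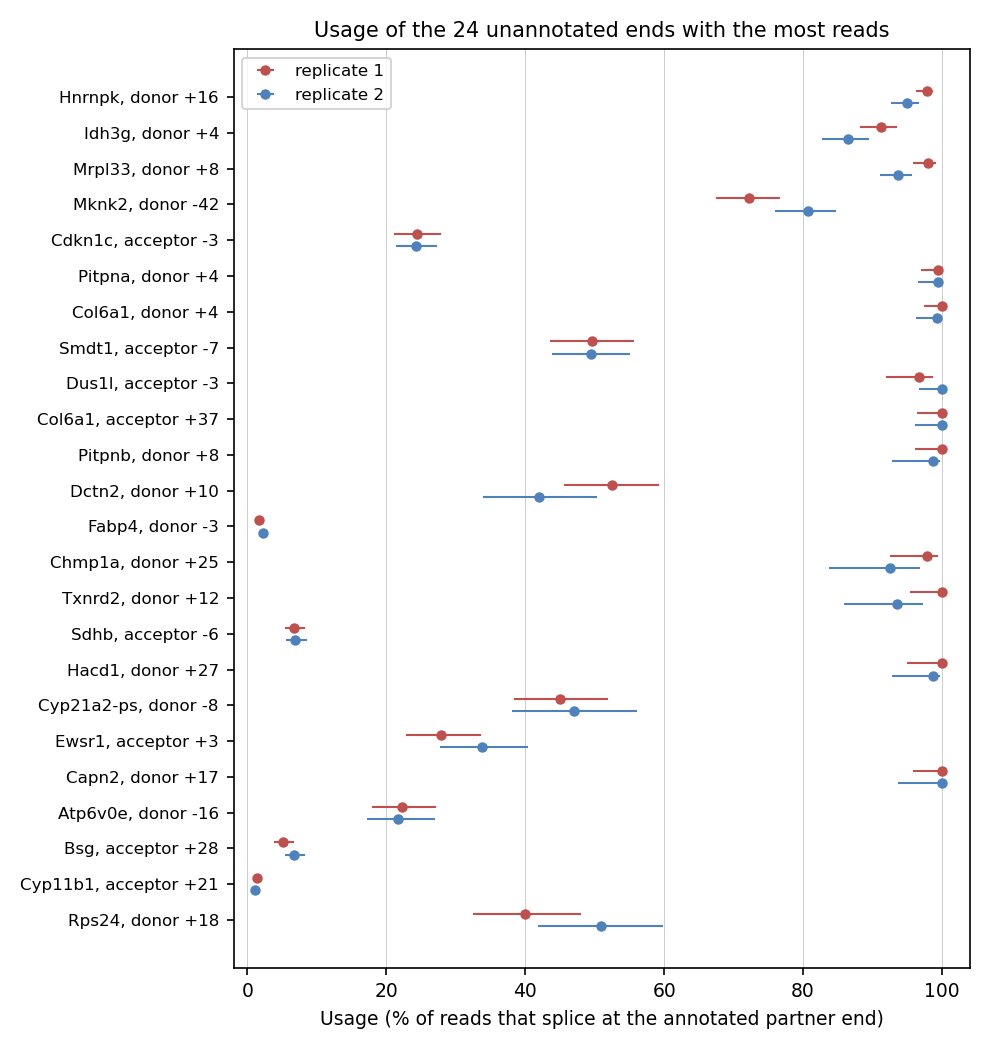
Usage of the 24 unannotated ends with the most reads among those with an annotated partner end and at least 20 partner reads per library, in percent of the reads that splice at the partner, in replicate 1 (red) and replicate 2 (blue) with Wilson 95% intervals; the number beside each gene is the offset in bases, positive for a longer exon. Values run from 1.44% in replicate 1 and 1.13% in replicate 2 (Cyp11b1) to 100% in both (Capn2), and the 2 points of a gene lie close together in most cases.

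Several of the most used sites belong to widely expressed genes. Mrpl33, a protein of the large mitochondrial ribosomal subunit, spliced 8 bases beyond the annotated donor of intron 1 in 302 of 308 reads of replicate 1 (98.1%) and 403 of 430 reads of replicate 2 (93.7%). Capn2, the large subunit of a calpain protease, used a donor 17 bases downstream at intron 10 in all 87 reads of replicate 1 and all 57 reads of replicate 2. Hnrnpk, an RNA-binding protein that acts in splicing and translation, used a donor 16 bases downstream at intron 12 in 547 of 559 reads of replicate 1 (97.9%) and 436 of 459 reads of replicate 2 (95.0%). Mknk2, a kinase of the translation factor eIF4E, used a donor 42 bases inside exon 1 in 266 of 368 reads of replicate 1 (72.3%) and 251 of 311 reads of replicate 2 (80.7%). Smdt1, a small regulator of the mitochondrial calcium uniporter, split its reads almost evenly: the acceptor 7 bases inside exon 3 took 127 of 256 reads in replicate 1 (49.6%) and 147 of 297 in replicate 2 (49.5%). Sdhb, the iron-sulfur subunit of succinate dehydrogenase, used an acceptor 6 bases inside an exon in 76 of 1131 reads of replicate 1 (6.72%) and 74 of 1071 reads of replicate 2 (6.91%).

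In 32 genes, members held over 50% of the gene's full-splice reads (spliced reads classed known, new in catalog or new not in catalog) in both libraries. They were counted among 4906 genes in which each library held 20 or more such reads, and 492 of these (10.03%) held a member. The median share of members in those 492 genes was 5.76%. Capn2 had 84 of 87 reads in replicate 1 (96.6%) and 53 of 54 in replicate 2 (98.1%). Cct6a, a subunit of the chaperonin that folds actin and tubulin, reached 96.4% in replicate 1 and 98.0% in replicate 2. Its main form joined exons across an intron of 50376 bases with both ends unannotated, in 180 reads of replicate 1 and 194 reads of replicate 2. Further genes on this list were Penk, Suds3 of the Sin3 corepressor complex, Chmp1a of the ESCRT-III complex, Pik3ca, the catalytic subunit of PI3 kinase, and Txnrd2, the mitochondrial thioredoxin reductase.

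**Figure D4:**
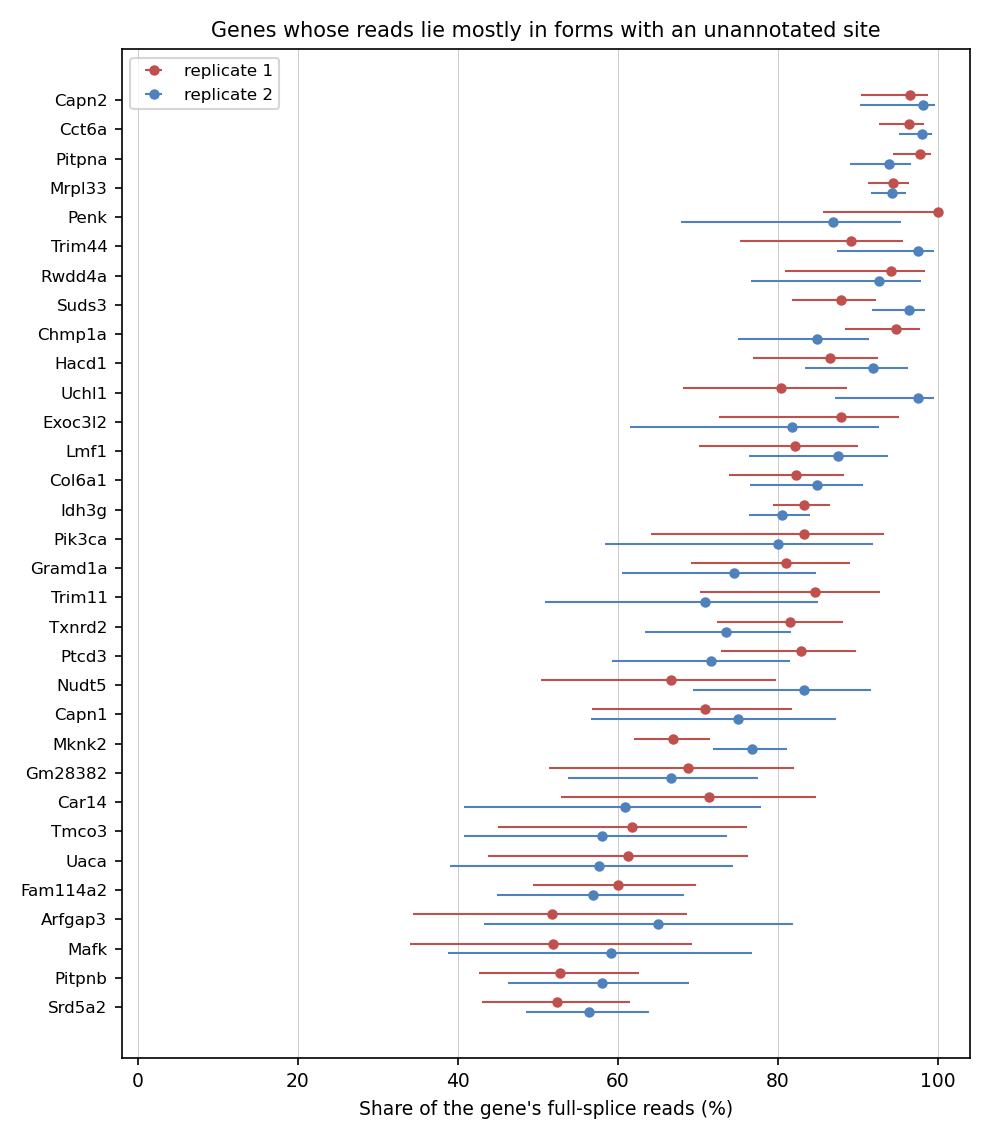
Share of each gene's full-splice reads in forms with an unannotated site, in percent, in replicate 1 (red) and replicate 2 (blue) with Wilson 95% intervals, for the 32 genes above 50% in both libraries. Shares run from 96.6% in replicate 1 and 98.1% in replicate 2 for Capn2 to 52.3% in replicate 1 and 56.4% in replicate 2 for Srd5a2.

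How many genes held a member depended on how deeply they were read. Among genes with 20 to 49 full-splice reads (mean of the libraries), 106 of 1999 (5.30%) held a member, against 90 of 213 genes (42.3%) with 500 or more. The median share of members went the other way, 20.9% in the lowest range and 0.776% in the highest. The minimum of 5 reads is a larger part of a shallow gene.

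**Figure D5:**
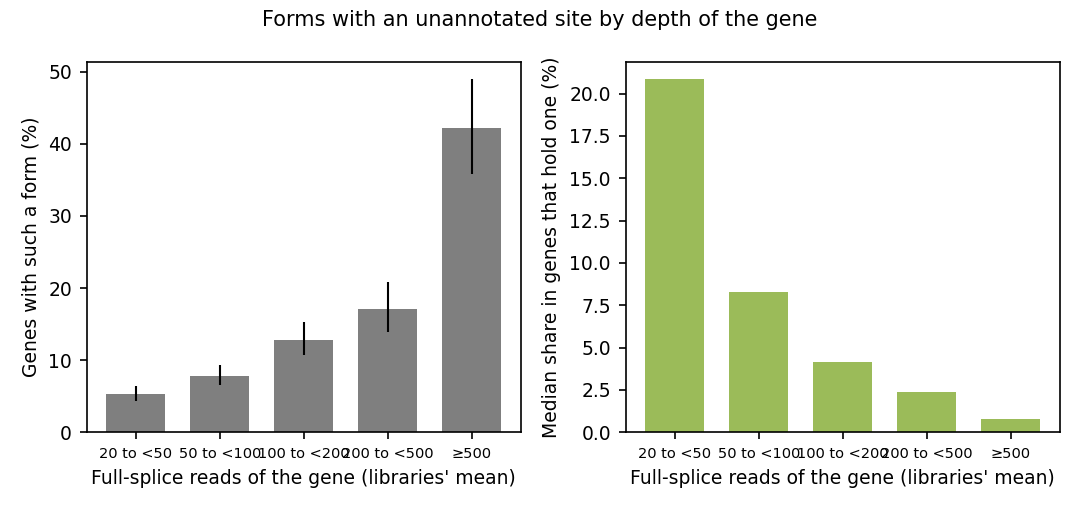
Left, percent of genes that hold a form with an unannotated site, with Wilson 95% intervals, and right, median share of full-splice reads in such forms within genes that hold one, by the gene's mean full-splice reads. The percent of genes is 5.30% in the lowest range and 42.3% in the highest, while the median share is 20.9% in the lowest and 0.776% in the highest.

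New introns cut from within an annotated exon were short, and some were flanked by repeated bases. There were 50, with a median length of 157 bases, the shortest 42, and 15 were under 100 bases. Srd5a2, steroid 5-alpha-reductase 2, lost 59 bases from its last exon between a GT donor and an AG acceptor in 80 reads of replicate 1 and 112 reads of replicate 2. Its form 1 had 56 reads in replicate 1 and 88 reads in replicate 2. For 49 of the 50 introns the bases around both ends could be read, and in 8 (16.3%, Wilson interval 8.51 to 29.0) at least 8 bases were identical at both ends, so that the intron could be placed elsewhere with the same spliced sequence. That held for 21 of 7968 readable annotated introns (0.264%, 0.172 to 0.403) and for 0 of 119 readable unannotated introns of other kinds, with a Wilson interval up to 3.13%. The length of 8 bases was chosen after these sequences were seen. Identity was counted only at matching positions, so repeats shifted by 1 base between the ends were missed. New introns of Acsl1 (the shortest, at 42 bases), Mafk, Cds2 and Bag2 counted 0. Yet their donor and acceptor windows held nearly the same bases, shifted by 1. The 8 introns are therefore not all that are flanked by repeats, and the placement of these ends was not tested.

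Rfng, a glycosyltransferase of the Notch pathway, had 28 identical bases at both ends of its new intron. Reads across such repeats can be placed in more than 1 way, so the ends of this intron are uncertain.

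New exons were fewer. Their median usage was 3.33% in replicate 1 and 3.43% in replicate 2 at 33 ends of new internal exons, 4.996% in replicate 1 and 6.57% in replicate 2 at 52 ends of new first exons, and 4.02% in replicate 1 and 5.57% in replicate 2 at 8 ends of new last exons. The forms named next lie above these medians. The 31 new internal exons had a median length of 102 bases, from 29 to 220, and 14 were a multiple of 3. Tbc1d15, a GTPase-activating protein for Rab7, gained 51 bases after intron 6 in 34 of 82 reads of replicate 1 (41.5%) and 24 of 50 reads of replicate 2 (48.0%). Among new first exons, Hnrnpf, an RNA-binding protein, had 54 of 366 reads in replicate 1 (14.8%) and 42 of 308 in replicate 2 (13.6%) at the acceptor of intron 1. In Yipf1, a Golgi membrane protein, the new first exon took 26 of 91 reads in replicate 1 (28.6%) and 45 of 117 in replicate 2 (38.5%). In 50 members an unannotated end lay outside the annotated span of the gene.

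Genes of a steroidogenesis list held many members, nearly all at low usage. The list is wider than the enzymes of corticosteroid synthesis and includes genes such as Apoe, Scarb1 and Srd5a2. Of 26 listed genes, 24 reached 20 full-splice reads in both libraries and 11 of these (45.8%) held a member, 39 members in all, against 10.03% of all 4906 genes. The 24 genes had a median of 387.5 full-splice reads and all genes 61.5, and deeper genes held a member more often, as given above. Cyp21a1, the steroid 21-hydroxylase, held 10 members with 125 reads in replicate 1 and 109 reads in replicate 2, 1.86% of its full-splice reads in replicate 1 and 1.92% in replicate 2. Cyp11b1, the steroid 11-beta-hydroxylase, held 6 members with 2.10% in replicate 1 and 1.95% in replicate 2. Cyp11a1 held 6 with 0.860% in replicate 1 and 1.09% in replicate 2, and Star, which carries cholesterol into mitochondria, held 4 with 0.726% in replicate 1 and 0.478% in replicate 2.

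The forms of these enzymes were mostly edge shifts. In Cyp21a1 form 2 the first exon joined an acceptor 25 bases inside exon 2, at 33 of 6448 reads in replicate 1 (0.512%) and 26 of 5514 in replicate 2 (0.472%). The last intron of Cyp21a1 form 6 spanned 81996 bases and was seen in 9 reads of each library. It ended outside the annotated Cyp21a1 gene, at a position that forms of Cyp21a2-ps, a pseudogene copy of it, also span, so its placement is uncertain. Cyp11b1 form 1 extended its last exon by 21 bases in 78 of 5407 reads of replicate 1 (1.44%) and 47 of 4143 reads of replicate 2 (1.13%). Cyp11b1 has a close relative, Cyp11b2, and reads could be split between such copies.

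Members held a larger share of Nr5a1 than of Cyp21a1, Cyp11b1, Cyp11a1 or Star. Nr5a1, the nuclear receptor SF-1, drives steroidogenic genes, and its 4 members held 22.5% of full-splice reads in replicate 1 and 22.6% in replicate 2. In 3 of the 4 forms the change lay at the first intron. Form 1 lengthened the exon before intron 3 by 108 bases and used 21 of 270 reads in replicate 1 (7.78%) and 22 of 247 reads in replicate 2 (8.91%). Form 2 shortened the first exon by 152 bases in 17 of 246 reads of replicate 1 (6.91%) and 18 of 227 reads of replicate 2 (7.93%). Srd5a2 held 52.3% of its reads in its member in replicate 1 and 56.4% in replicate 2. The members of Hsd3b1 held 33 of 66 full-splice reads in replicate 1 and 32 of 65 in replicate 2, of a gene with 4621 reads in replicate 1 and 4672 in replicate 2. At its partner donor, Hsd3b1 form 1 took 25 of 3340 reads in replicate 1 (0.749%) and 21 of 3215 in replicate 2 (0.653%).

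Among chromaffin genes, 4 of 12 with enough reads (33.3%) held a member, against 10.03% of all 4906 genes. Gata3, below that depth, held another. The 12 genes had a median of 338.75 full-splice reads and all genes 61.5, and deeper genes held a member more often. Penk was described above. Cyb561, the cytochrome that passes electrons into the granule, held 2 members: form 1 extended the first exon by 170 bases in 26 of 325 reads of replicate 1 (8.00%) and 30 of 269 reads of replicate 2 (11.2%). Chga, chromogranin A, held 5 members with 33 reads in replicate 1 and 34 in replicate 2, each under 1% of the gene's full-splice reads. Chga forms 2 and 4 used acceptors 23 and 41 bases inside exon 5, in 6 and 9 of 2173 reads in replicate 1 and in 8 and 7 of 2070 reads in replicate 2. Both acceptors lie among repeated CAG triplets. Alignments of individual reads and CAST alleles were not examined, so their placement was not tested.

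In the other lists, 2 of 28 splicing regulators with enough reads held a member (Hnrnpk and Hnrnpa2b1), 4 of 9 fat genes, 1 of 8 imprinted genes (Cdkn1c) and 1 of 7 hepatocyte genes. The share over all 4906 genes was 10.03%. The lists differed in depth. Median full-splice reads were 78.75 for splicing regulators, 762 for fat genes, 69 for imprinted genes, 647.5 for hepatocyte genes and 61.5 for all genes. Fabp4, the fatty acid carrier of adipocytes, used a donor 3 bases inside the exon, at the ggtgGTggtg of the window, in 69 of 4155 reads of replicate 1 (1.66%) and 90 of 4105 reads of replicate 2 (2.19%). Cdkn1c held 4 members with 23.4% of full-splice reads in replicate 1 and 22.8% in replicate 2.

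The libraries were compared by an exact binomial test of each chain's reads against the libraries' sizes, Benjamini-Hochberg adjusted over all 12898 chains with at least 10 reads in total. Of 465 members tested, 16 (3.44%) passed an adjusted threshold of 0.05, 7 with the higher level in replicate 1 and 9 with the higher level in replicate 2. Of all chains tested 7.3% passed, with 3.92% above in replicate 1 and 3.39% above in replicate 2. New in catalog chains passed at 3.63% and known chains, which are deeper, at 8.14%. With TMM, DESeq2 or full-splice scaling, which lower all log2 ratios by 0.16, 0.11 and 0.08, 14, 14 and 12 members passed, of which 3 were higher in replicate 1 each time. Of the 16, 14 lay in genes whose summed reads, the member's own included, differed as well, as did 783 of all 942 chains that passed.

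The members higher in replicate 2 included genes that are abundant in liver. Trf form 2, of the iron carrier transferrin, had 0 reads in replicate 1 and 27 in replicate 2 (adjusted p = 9.64e-07, exact binomial test). With the 0 set to 3 reads, it was 8.81-fold higher in replicate 2. The ratio of replicate 1 over replicate 2 had a Clopper-Pearson interval of 0 to 0.149. Rbp4 is the retinol carrier and Cyp2c70 a bile acid hydroxylase. The called form of each had 0 reads in replicate 1 and 18 in replicate 2 (adjusted p = 0.000307, exact binomial test). With the 0 set to 3 reads, each was 5.88-fold higher in replicate 2, and the interval of each ratio was 0 to 0.232. The Rbp4 gene as a whole had 105 reads in replicate 1 and 2166 in replicate 2. The hepatocyte markers given above moved the same way, and their part in these differences was not tested. In bulk tissue, fewer cells of a type and less RNA per cell cannot be told apart. Gm21887, a gene near the end of the X chromosome that has close copies, had 7 reads in replicate 1 and 65 in replicate 2 (adjusted p = 8.45e-11, exact binomial test).

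Among members higher in replicate 1, Lrrc47 form 1, which lacks 46 bases of an exon, had 50 reads in replicate 1 and 20 reads in replicate 2, a ratio of 2.55 (Clopper-Pearson interval 1.49 to 4.53, adjusted p = 0.0067, exact binomial test). Ubxn2a form 1 had 15 reads in replicate 1 and 1 read in replicate 2, a ratio of 15.3 (interval 2.36 to 645, adjusted p = 0.00605, exact binomial test). With no read minimum, the calls of Mrpl33, Lrrc47, Ubxn2a and Alad were also lost. Cyp11b1 form 1 had 77 reads in replicate 1 and 42 in replicate 2, a ratio of 1.87 (interval 1.27 to 2.80, adjusted p = 0.0177, exact binomial test), which missed the threshold with the 3 other scalings (adjusted p between 0.0511 and 0.0974) and with no read minimum (adjusted p = 0.173), as did Incenp, Slc6a2 and Cyp21a2-ps under those same 4 alternatives. The most abundant member, Mrpl33 form 1, was lower in replicate 1, with 301 reads in replicate 1 and 403 in replicate 2, a ratio of 0.763 (interval 0.655 to 0.888, adjusted p = 0.00899, exact binomial test), and its gene had 319 reads in replicate 1 and 439 in replicate 2.

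Within genes, no member's share was found to differ between the libraries. Fisher's exact test of each chain against the other full-splice reads of its gene called 0 of 397 members after Benjamini-Hochberg adjustment over 7681 chains, beside 15 of all chains (0.195%, of which 0.0781% had the larger share in replicate 1 and 0.117% in replicate 2), and 24 of the 397 members and 388 of the 7681 chains had an unadjusted p under 0.05. The median member had 11 reads over both libraries, which limits the differences in share that could be detected.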

How the data were processed

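Long-read RNA sequencing of 2 adrenal libraries of 1 group was used. The deposited values are whole-number read counts per transcript model, not normalized by the authors, in a table for each library that lists models seen at least once. Per the file headers and the deposited description, models were assigned with GENCODE M21 on mm10 in TALON format; the aligner is not given in the sources used here. Exon coordinates came from the annotation deposited with each library.

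Chains were joined between libraries by chromosome, strand and all intron coordinates. A site was called annotated if any GENCODE model in the deposited annotations has it. Usage, shares and CPM were computed from counts. Wilson and Clopper-Pearson intervals are at 95% and cover counting error only. Reads carry no molecular identifiers, so copies of 1 molecule could not be told apart, and the intervals treat each read as independent. Tests were run in SciPy 1.17.1 (Python 3.11.15), and other scalings used edgeR 4.0.16 and DESeq2 1.42.0 in R 4.3.3. Bases came from M21 transcript sequences joined to exon coordinates (141767 transcripts, 0 length mismatches, 0 conflicting bases); no genome was used, so bases of ends in annotated introns were not read. Both tests were tested on simulated data with known changes.

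The members, gene lists, tests and alternatives were chosen with earlier results of these data known. Named forms were the 10 highest in CPM, the 8 with the highest gene share, the 2 most read of each kind, all in steroidogenic and chromaffin genes, the 2 most read of each other list, the 5 largest ratios in each direction among called members, members past the share test and the 3 genes with the most members. Lmf1, Mettl9, Dus1l, Uchl1, Rpl7l1, Usmg5, Sdhb, Rfng, Ankrd9, Ehbp1l1, Pik3ca, Txnrd2, Lpl, Gm15446, Smim14, Acsl1, Mafk, Cds2 and Bag2 were named after their values were seen. Sequences of chromosome 18 were left out, and some withheld items are not reported here. The alternatives covered the read minimum, matching, denominators, scaling and leaving out each library.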

Additional observations from a re-analysis of the deposited data

Results flagged for a closer look

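Unannotated splice sites also occurred outside the class on which the members were chosen. Among chains with at least 5 reads in a library, 127 of 1538 classed new in catalog held an unannotated end, with 1252 reads in replicate 1 and 1106 in replicate 2, and a Hnrnpk chain was the most abundant with 236 reads in replicate 1 and 161 in replicate 2. A further 35 of 2706 chains classed truncated held one, with 208 reads in replicate 1 and 198 in replicate 2. No known chain of 10993 did, which is so by definition, because annotated sites were taken from the known models. Labels of the class by themselves do not give a complete list of such forms in these tables.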

How the results depend on the processing

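The number of members followed the read minimum: it was 1917 with at least 3 reads, 239 with at least 10 and 1152 with 5 reads summed over both libraries. It ranged from 474 to 526 when a library was left out. With a minimum of 10 reads, 98.3% of members were in both libraries. The share of reads was 1.18% of full-splice reads and 3.75% when all chains of the class were counted. GT or AG stood at 90.2% of readable ends of members with at least 10 reads and reads in both libraries. Library calls numbered 9 with at least 20 reads, 7 with at least 50, 5 with no minimum and 0 of 350 without genes whose summed reads differ, a choice that removes most calls by its construction; with no minimum, 8 of the named forms missed the threshold. Genes above 50% numbered 16 with at least 50 full-splice reads and 39 to 48 when a library was left out. Genes with a member made up 5.10% of all genes with at least 5 reads. With 2 alternatives added after seeing the data, members numbered 561 without genes that differ and 921 when chains of any class with an unannotated end were counted. The causes were not tested. No paired analysis was possible because there was only 1 group. Depth limits forms below 5 reads.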
